A study of Mus musculus with 6 samples.

Results

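Integrin subunits and laminin chains were taken as all gene symbols of these 2 families among the 24393 symbols listed for each library. The rule found 39 genes, 28 integrin and 11 laminin, after 3 of 42 matching symbols were left out because they name integrin-binding proteins. All 39 members had a position in the mouse genome build mm9. Of these, 30, 20 integrins and 10 laminins, had enough counts to pass the filter of the main test. No member passed the filter through the libraries of one group alone.

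The RNA came from KH2 mouse embryonic stem cells, labelled as strain C57/BL/6, in 3 CONTROL and 3 HOXA13 libraries. HOXA13 cells carry a human HOXA13 gene under a doxycycline-inducible promoter, with a FLAG tag, inserted in correctly targeted clones. Both groups share 1 protocol text: differentiation towards definitive endoderm on M15 cells, a mesoderm-derived mouse feeder line, with doxycycline at 1.25 µg/ml from day 4, a sort of CXCR4+/E-cadherin+ cells on day 6 and 1 further day of culture with doxycycline. What construct the CONTROL cells carried, and whether they received doxycycline, is not given separately in the sources used here. Feeder RNA is mouse RNA and cannot be told apart from that of the KH2 cells. The 3 libraries of a group are described as biological replicates, without saying whether each is a clone of its own, and p-values measure the spread between these libraries only.

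Integrins are cell-surface receptors made of an alpha and a beta chain that tie the matrix outside the cell to the cytoskeleton inside it. Laminins are the main glycoproteins of the basement membrane, each a trimer of an alpha, a beta and a gamma chain. In simple epithelia, Lama5 with Lamb1 or Lamb2 and Lamc1 makes the common basement membrane laminin. Lama3 and Lamb3 are chains of the laminin bound by the Itga6-Itgb4 receptor of the hemidesmosome, the junction that anchors epithelial cells to the matrix.

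Total counts per library were between 12279884 and 17331638, and levels are given as CPM, counts scaled to the size of each library, after TMM scaling, for which 3 counts correspond to 0.176 to 0.240 CPM. The human HOXA13 row had 0 counts in each CONTROL library and 2497, 7666 and 6572 in the HOXA13 libraries, while mouse Hoxa13 had 0 to 10 counts. CONTROL replicate 2 stood apart from the other CONTROL libraries, with rank correlations of 0.908 and 0.931 across genes against 0.977 between the other two, and of 0.951 to 0.961 with the HOXA13 libraries. Of the definitive endoderm markers Cer1 was at 0 in every library, and the 11 markers summed to 120 to 191 CPM in CONTROL and 79.7 to 121 CPM in HOXA13 libraries. Of the 9 tested, edgeR called 0, DESeq2 called 1 lower and voom 2 lower. Without CONTROL replicate 2 edgeR called 2 of them lower, and none of these rules called any higher. All 15 epithelial markers had positive log2 fold changes, and their sum was 2264, 8305 and 5689 CPM in CONTROL replicates 1 to 3 and 10507 to 12376 CPM in HOXA13 libraries. Of 20 mesenchymal markers 2 had positive log2 fold changes, and their sum was 9821, 977 and 6994 CPM in CONTROL replicates 1 to 3 and 521 to 1685 CPM in HOXA13 libraries. Of the epithelial and mesenchymal lists edgeR called 0 genes, while DESeq2 called 3 epithelial markers higher and 1 mesenchymal marker lower, voom 13 higher and 8 lower, and edgeR without CONTROL replicate 2 called 12 higher and 10 lower. Of all genes tested, these rules called 3.11% higher and 1.94% lower in DESeq2, 9.11% and 6.34% in voom, and 7.92% and 6.32% without CONTROL replicate 2. The 12 pluripotency markers summed to 146, 1616 and 251 CPM in CONTROL replicates 1 to 3 and to 1003, 571 and 574 CPM in HOXA13 replicates 1 to 3, so that CONTROL replicate 2 was the highest library. Of these 12, edgeR called 0, also at an unadjusted p under 0.05, DESeq2 called 0 of the 7 it could test, voom called 5 higher, and edgeR without CONTROL replicate 2 called 7 higher. All 8 tested markers of mesonephric feeder cells had negative log2 fold changes with 0 called by edgeR, DESeq2 or voom, and their sum was 53.2 to 78.5 CPM in CONTROL and 32.9 to 66.5 CPM in HOXA13 libraries. The part of these lists in the values given for integrins and laminins was not tested, and in bulk RNA fewer cells of a type and less RNA per cell cannot be told apart.

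The integrin subunits Itga6 and Itgb4 and the basement membrane chain Lama5 had higher levels in every HOXA13 library than in any CONTROL library, at 1.82 to 2.37 times the CONTROL mean. Lama1, Lamb2 and the muscle-type laminin receptor chain Itga7 had lower levels in every HOXA13 library, at 0.389 to 0.555 times the CONTROL mean. Itgb1, the beta chain shared by most of these receptors and the most abundant member, had group means that differed by less than the CONTROL libraries did among themselves. With edgeR's quasi-likelihood test adjusted over all genes tested, 0 of 30 members passed the threshold of 0.05, and 0.309% of the 13600 genes did so, 0.265% with higher and 0.0441% with lower levels in HOXA13. At an unadjusted p under 0.05 there were 6 members with higher and 4 with lower levels, against 8.05% and 6.02% of all genes. Of the 30 members tested, 6 higher and 3 lower in HOXA13 did not overlap between the groups, against 11.5% and 8.52% of all genes tested. Lamc1, among the 6 higher in both counts, lies on chromosome 1, where the median log2 fold change over 476 genes was 0.54.

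The study's own tool, DESeq2, called 6 of the 35 members it could test, 3 higher and 3 lower in HOXA13, with Itga6 and Lama5 among the higher and Itga7, Lama1 and Lamb2 as the lower ones, against 5.05% of the genes it tested, 3.11% called higher and 1.94% lower. Voom with sample quality weights called 11 of 30 members, 6 higher and 5 lower, against 9.11% and 6.34% of genes. Without CONTROL replicate 2, edgeR called 10 of 34 members tested, against 7.92% of genes called higher and 6.32% called lower. They included Itga6, Itgb4, Lama5 and Lamb3, which were higher, and Itga5, Itga7, Itgb1, Lama1 and Lamb2, which were lower. CONTROL replicate 2 was the library seen to stand apart from the other CONTROL libraries, so p-values without it are no separate support. Without CONTROL replicate 1 edgeR called 0 integrins and 0 laminins. Its adjusted p-values were then 0.258 for Itga6, 0.341 for Itgb4, 0.311 for Lama5, 0.326 for Itga7, 0.467 for Lama1 and 0.429 for Lamb2. The median log2 fold change was 0.20 over the 10 laminins tested, with 5 positive and 5 negative values, and -0.20 over the 20 integrins tested, with 6 positive and 14 negative values, beside -0.013 over all genes.

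**Figure D1:**
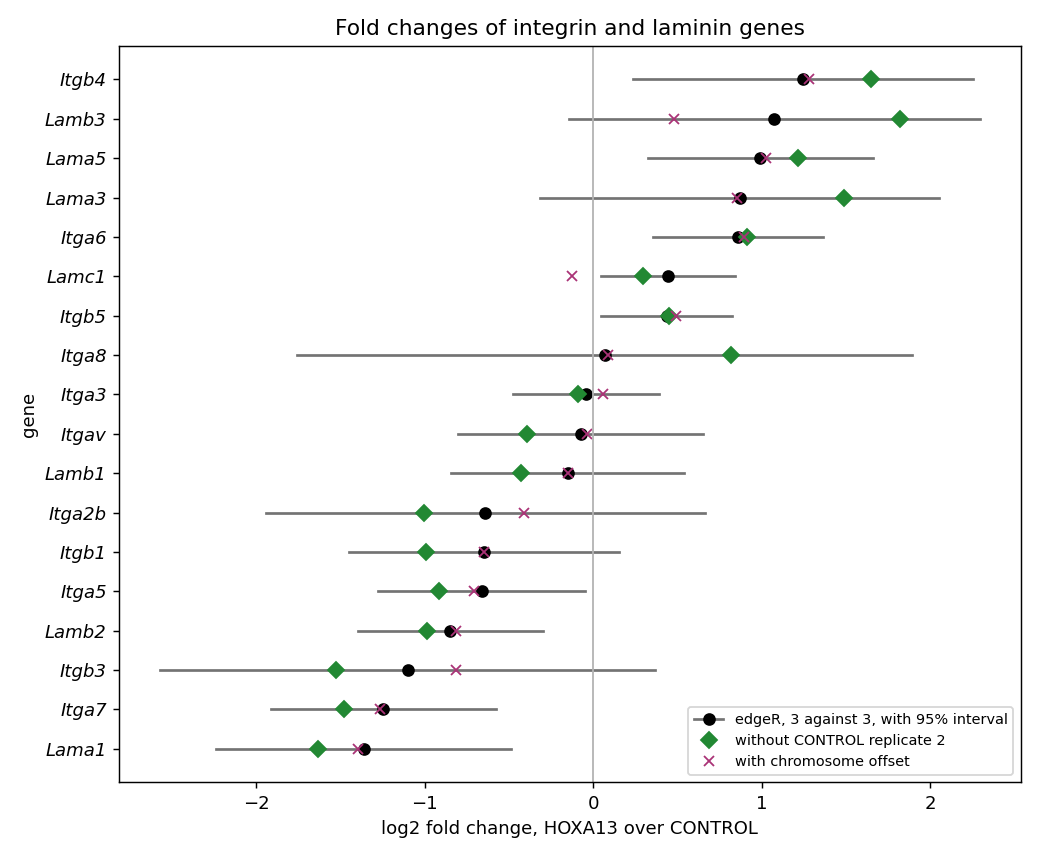
log2 fold changes (HOXA13 over CONTROL, x axis) of 18 tested members at a mean of 5 CPM or more, one gene per line of the y axis. Black points are edgeR estimates from all 6 libraries with their 95% intervals, green diamonds leave out CONTROL replicate 2 and purple crosses add an offset for each chromosome. The interval of Itga6 runs from 0.36 to 1.37, and its value is 0.91 without CONTROL replicate 2 and 0.90 with the chromosome offset.

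The promoters of 2 laminin genes whose groups did not overlap, Lama5 being higher and Lamb2 lower in HOXA13, are shown as 300 bases from 250 before the start of the gene, from RefSeq on build GRCm38.p6. Both were found at 1 place in mm9, Lama5 at chr2:179960515-179960814 on the minus strand and Lamb2 at chr9:108381943-108382242 on the plus strand. Capitals mark GGGCGG on either strand, the core of the GC box that Sp-family factors recognise.
Lama5: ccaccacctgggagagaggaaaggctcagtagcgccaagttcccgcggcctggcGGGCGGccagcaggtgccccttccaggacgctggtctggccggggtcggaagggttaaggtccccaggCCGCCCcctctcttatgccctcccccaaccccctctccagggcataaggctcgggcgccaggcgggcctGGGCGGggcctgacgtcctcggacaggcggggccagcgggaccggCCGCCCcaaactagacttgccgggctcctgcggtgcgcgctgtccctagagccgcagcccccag
Lamb2: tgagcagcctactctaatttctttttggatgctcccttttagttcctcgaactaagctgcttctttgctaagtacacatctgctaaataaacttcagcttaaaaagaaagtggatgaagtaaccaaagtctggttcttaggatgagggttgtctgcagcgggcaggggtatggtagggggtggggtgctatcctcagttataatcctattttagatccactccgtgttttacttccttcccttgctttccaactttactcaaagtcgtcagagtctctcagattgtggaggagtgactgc
The Lama5 window holds 24 CpG pairs at 72.7% G and C, with 4 matches to GGGCGG. The Lamb2 window holds 4 CpG pairs at 44.0% G and C and no match, which says only that these letters are not in this window. Other members were mixed, with 3 matches for Itgb5 (log2 fold change 0.44), 0 for Lamb3 (1.07) and 2 for Itga5 (-0.66). A link between matches and levels was not tested. Among the 39 members, 25 had promoter entries, 28 windows in all, and 13 of the 28 held GGGCGG, against 35.7% of 32851 promoters in the table. CAATAAA, a motif of the kind that HOX13 proteins bind, was in 0 of the 28 windows and in 4.6% of all promoters. TGANTCA, the AP-1 motif, was in 3 of the 28 and in 7.81% of all, with both strands searched for each motif.

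Among the laminin alpha chains, Lama5 is the chain of most adult epithelial basement membranes and was the most abundant. Lama5 levels were 369, 822 and 695 CPM in CONTROL replicates 1 to 3 and 1052, 1306 and 1395 CPM in HOXA13 replicates 1 to 3. Every HOXA13 library lay above every CONTROL library, and CONTROL replicate 1 was the lowest of the 6. Its log2 fold change was 0.99 ± 0.29 (SE), with an edgeR adjusted p of 0.183, a DESeq2 adjusted p of 0.0268 and an edgeR adjusted p of 0.0182 without CONTROL replicate 2.

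Lama1 is the alpha chain of the first basement membranes of the embryo. It was measured at 31.1, 12.6 and 18.9 CPM in CONTROL replicates 1 to 3 and at 7.99, 6.97 and 9.40 CPM in HOXA13 replicates 1 to 3. All 3 HOXA13 libraries were below all 3 CONTROL libraries. The log2 fold change of Lama1 was -1.36 ± 0.38 (SE), with adjusted p-values of 0.168 in edgeR, 0.0291 in DESeq2 and 0.0114 in edgeR without CONTROL replicate 2. The visceral and parietal endoderm markers also had a lower sum in each HOXA13 library (61.8 to 92.6 CPM) than in any CONTROL library (132 to 142 CPM), with 7 of 8 tested markers negative, a lowest edgeR adjusted p of 0.0754, and Afp and Ttr at 0 in every library. The part of these markers in the Lama1 value was not tested. Lama3, the alpha chain of the hemidesmosomal laminin, was at 5.96, 32.4 and 18.3 CPM in CONTROL replicates 1 to 3 and at 29.3, 36.8 and 37.2 CPM in HOXA13 replicates 1 to 3. CONTROL replicate 2 lay among the HOXA13 libraries, so the groups overlapped, and the log2 fold change of 0.87 ± 0.51 (SE) had an edgeR adjusted p of 0.516. For Lama3 it was 0.42 without CONTROL replicate 1 and 1.49 without CONTROL replicate 2 (edgeR adjusted p of 0.0502), and voom called it higher (1.43, adjusted p of 0.0257). Lama2 and Lama4, alpha chains of muscle and vessel basement membranes, were at 0 to 5.69 CPM in all libraries.

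Expressed per kb of annotated exons, so that chains can be compared with each other, Lama5 made up 88.2%, 94.2% and 93.9% of the laminin alpha level in CONTROL replicates 1 to 3 and 95.8%, 96.4% and 96.4% in HOXA13 replicates 1 to 3. The share of Lama1 was 8.92%, 1.73% and 3.06% in the CONTROL and 0.872%, 0.616% and 0.778% in the HOXA13 libraries. The ratio of Lama5 to Lama1 within a library was 2.34 log2 units higher in HOXA13 than in CONTROL, with no overlap between the groups. It was 1.66 without CONTROL replicate 1 and 2.88 without CONTROL replicate 2, the ends of the range with 1 library left out. For 3 against 3 libraries an exact two-sided permutation test cannot go below 0.1, the p obtained here, which was 0.16 after adjustment over the 8 ratios computed.

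Lamb1 and Lamb2 are alternative beta chains of the common laminins, of which Lamb2 is the one of the kidney filter and the neuromuscular synapse. Lamb2 levels were 175, 130.2 and 175 CPM in CONTROL replicates 1 to 3 and 63.4, 113 and 90.1 CPM in HOXA13 replicates 1 to 3. The groups did not overlap, and HOXA13 replicate 2 came closest to the CONTROL libraries. For Lamb2 the log2 fold change was -0.85 ± 0.24 (SE), with adjusted p-values of 0.169 in edgeR, 0.0328 in DESeq2 and 0.0212 in edgeR without CONTROL replicate 2. Lamb1, in contrast, was at 793, 399 and 801 CPM in CONTROL replicates 1 to 3 and at 434, 686 and 672 CPM in HOXA13 replicates 1 to 3. All 3 HOXA13 libraries lay between CONTROL replicate 2 and the other CONTROL libraries, and the log2 fold change of -0.15 ± 0.30 (SE) had an edgeR adjusted p of 0.871 and a 95% interval from -0.84 to 0.54. Of the beta level per kb of annotated exons, Lamb2 took 27.6%, 33.5% and 27.2% in CONTROL and 17.5%, 21.3% and 17.9% in HOXA13 libraries. These shares depend on the length used, and with the longest transcript in place of all exons Lamb2 took 18.1% to 23.5% in CONTROL and 11.6% to 13.96% in HOXA13 libraries.

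Lamb3, the beta chain of the hemidesmosomal laminin, was at 5.60, 25.2 and 10.7 CPM in CONTROL replicates 1 to 3 and at 40.6, 21.3 and 25.3 CPM in HOXA13 replicates 1 to 3. The groups overlapped through CONTROL replicate 2, which was above HOXA13 replicate 2. The log2 fold change of 1.07 ± 0.53 (SE) had an edgeR adjusted p of 0.421, and it was 1.82 without CONTROL replicate 2, with an adjusted p of 0.0185, and 0.67 without CONTROL replicate 1, with an adjusted p of 0.749. Voom called Lamb3 higher (1.42, adjusted p of 0.0281). Lamb3 lies on chromosome 1 (chr1:195128151-195170072), where the median over 476 genes was 0.54 on the log2 scale. After each library was offset by its median deviation on that chromosome, the log2 fold change of Lamb3 was 0.48.

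**Figure D2:**
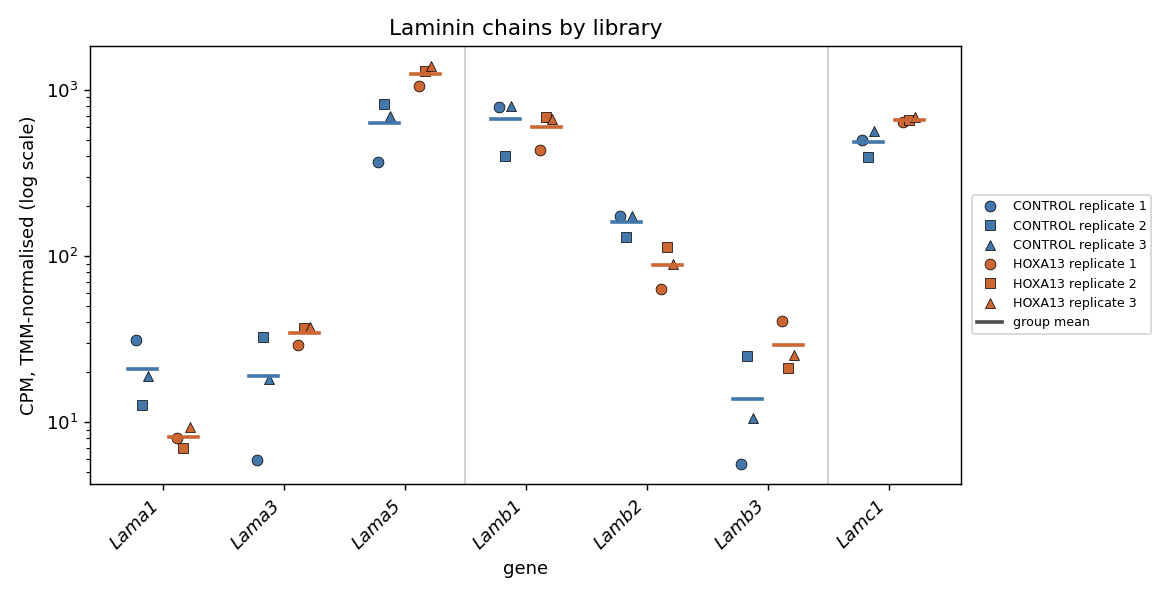
Levels of 7 laminin chains at a mean of 5 CPM or more (y axis, TMM-normalised CPM on a log scale), with alpha chains, beta chains and Lamc1 separated by grey lines on the x axis. Blue symbols are CONTROL and orange symbols HOXA13 libraries, symbol shapes give the replicate number and bars the group mean. All Lama5 points of HOXA13 lie between 1052 and 1395 CPM and those of CONTROL between 369 and 822 CPM.

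Lamc1 is the gamma chain of nearly all laminins. Lamc1 levels were 498, 392 and 567 CPM in CONTROL replicates 1 to 3 and 644, 658 and 682 CPM in HOXA13 replicates 1 to 3. The groups did not overlap, and the log2 fold change was 0.45 ± 0.17 (SE) with an edgeR adjusted p of 0.301. Lamc1 (chr1:155066052-155179916, minus strand) also lies on the chromosome with the shifted median, and with the chromosome offset its log2 fold change was -0.13. The median deviation over genes of chromosome 1 did not overlap between the groups either. It was -0.31, -0.33 and -0.22 in CONTROL replicates 1 to 3 and 0.31, 0.26 and 0.31 in HOXA13 replicates 1 to 3. Lamc3, a gamma chain of a few tissues, was at 0 to 3.76 CPM.

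Per kb of annotated exons, mean levels in HOXA13 libraries were 110 CPM for Lama5, 80.0 CPM for Lamc1 and 60.3 CPM for Lamb1, beside 6.66 CPM for Lamb3 and 3.27 CPM for Lama3. In CONTROL libraries Lama5, Lamc1 and Lamb1 were at 55.1, 58.7 and 67.0 CPM per kb, likewise above Lamb3 and Lama3 at 3.16 and 1.79 CPM per kb. The order of Lama5, Lamc1 and Lamb1 depends on the length used, and per kb of the longest transcript they were at 109.8, 86.8 and 103 CPM in HOXA13 and at 55.2, 63.7 and 115 CPM in CONTROL libraries.

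**Figure D3:**
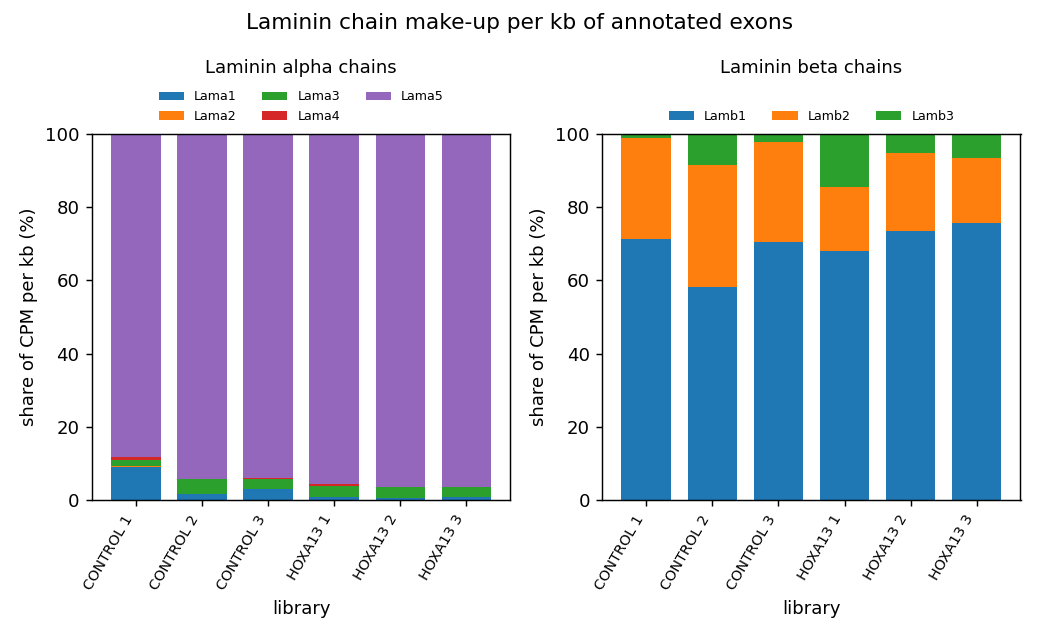
Share of each chain in the summed laminin alpha and beta level per library (y axis, percent of CPM per kb of annotated exons), with 1 bar per library on the x axis. Lamb2 takes 17.5% to 21.3% of the beta level in the HOXA13 libraries and 27.2% to 33.5% in the CONTROL libraries, and Lama5 takes 88.2% or more of the alpha level in all 6.

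The laminin-binding integrins are made of Itga3, Itga6 or Itga7 with Itgb1, or of Itga6 with Itgb4. Itga6 levels were 381, 595 and 662 CPM in CONTROL replicates 1 to 3 and 981, 939.6 and 1055 CPM in HOXA13 replicates 1 to 3. The groups did not overlap, and the gap between them was larger than the spread of the HOXA13 libraries. Its fold change was 0.86 ± 0.22 (SE) on the log2 scale, with adjusted p-values of 0.146 in edgeR, 0.0149 in DESeq2 and 0.0295 in edgeR without CONTROL replicate 2.

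Itgb4, the long-tailed beta chain that links laminin to keratin filaments through plectin, was at 25.6, 101 and 74.8 CPM in CONTROL replicates 1 to 3 and at 123, 171 and 184 CPM in HOXA13 replicates 1 to 3. All HOXA13 libraries were above all CONTROL libraries, with CONTROL replicate 1 far below the others. The log2 fold change of 1.25 ± 0.44 (SE) did not pass in edgeR (adjusted p of 0.259) or DESeq2 (0.0599). It had an edgeR adjusted p of 0.0276 without CONTROL replicate 2, and voom with all 6 libraries called Itgb4 higher (1.64, adjusted p of 0.00909). Itgb4 lies on chromosome 11, where the median log2 fold change of 679 genes was -0.17, and with the chromosome offset its value was 1.28. The median deviation on that chromosome was 0.38 in CONTROL replicate 1 and -0.12 to -0.034 in the other libraries. Exons of a noncoding gene overlap Itgb4 on the other strand and the strand setting of the counting is not given, so its reads may include some of that gene.

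Itga7, the laminin receptor chain best known from muscle, was lower in HOXA13. Its levels were 41.4, 23.8 and 40.7 CPM in CONTROL replicates 1 to 3 and 12.8, 13.8 and 18.0 CPM in HOXA13 replicates 1 to 3. No HOXA13 library reached the lowest CONTROL library, replicate 2. Its log2 fold change of -1.25 ± 0.29 (SE) had adjusted p-values of 0.118 in edgeR, 0.00735 in DESeq2 and 0.00576 in edgeR without CONTROL replicate 2. Exons of Mettl7b overlap it on the other strand.

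Itga3, the epithelial laminin receptor chain found with Itgb1, was at 495, 559.7 and 696 CPM in CONTROL replicates 1 to 3 and at 473, 623 and 601 CPM in HOXA13 replicates 1 to 3. The 2 ranges overlapped over most of their length, with a log2 fold change of -0.045 ± 0.19 (SE), a 95% interval from -0.48 to 0.39 and an edgeR adjusted p of 0.948. The sum over the 4 laminin-binding subunits was 943 to 1473 CPM in CONTROL and 1590 to 1858 CPM in HOXA13 libraries, which did not overlap.

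Itgb1, which pairs with many alpha chains and can bind laminin, collagen or fibronectin depending on the partner, ranked at place 9 of all genes tested by mean CPM. It was at 4107, 1568 and 3982 CPM in CONTROL replicates 1 to 3 and at 1683, 2262 and 2212 CPM in HOXA13 replicates 1 to 3. CONTROL replicate 2 was the lowest of the 6 libraries while the other CONTROL libraries were the highest, so the groups overlapped. The log2 fold change of -0.65 ± 0.35 (SE), with a 95% interval from -1.45 to 0.15, had an edgeR adjusted p of 0.461, and it was -0.99 with an adjusted p of 0.00592 without CONTROL replicate 2. With all 6 libraries voom called Itgb1 lower (-0.78, adjusted p of 0.0236).

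Itgb4 held 0.353%, 3.41% and 1.05% of the integrin beta level per kb of annotated exons in CONTROL replicates 1 to 3 and 3.82%, 3.99% and 4.40% in HOXA13 replicates 1 to 3, and Itgb1 held 90.0% or more in each library. The ratio of Itgb4 to Itgb1 was 1.97 log2 units higher in HOXA13 than in CONTROL libraries without overlap, with an exact two-sided permutation p of 0.1, the smallest possible, and 0.16 after adjustment. The CONTROL ratios were spread, and the difference was 1.15 without CONTROL replicate 1 and 2.83 without CONTROL replicate 2.

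**Figure D4:**
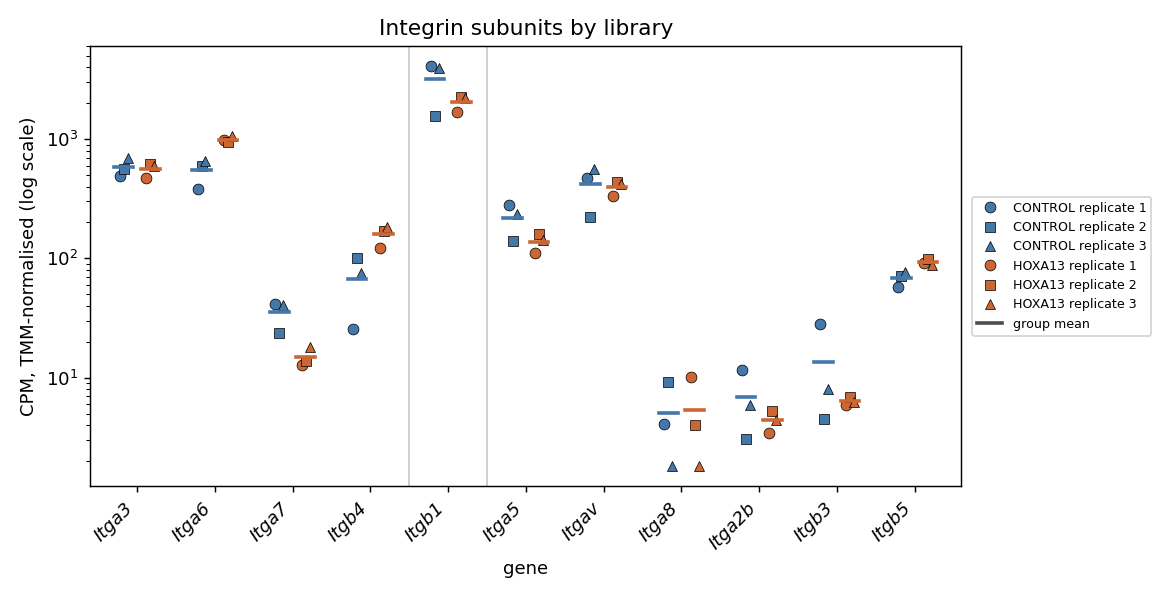
Levels of the 11 integrin subunits with a mean of at least 5 CPM (y axis, TMM-normalised CPM on a log scale). From left to right on the x axis stand the laminin-binding subunits, the shared beta chain Itgb1 and the subunits of receptors for RGD-containing ligands. Blue symbols are CONTROL and orange symbols HOXA13 libraries, shapes give the replicate number and bars the group mean. Itga6 and Itgb4 are higher and Itga7 is lower in every HOXA13 library, and CONTROL replicate 2 is the lowest library for Itgb1, at 1568 CPM.

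The receptors for RGD, the short peptide motif of fibronectin and vitronectin, had 8 members, all tested. Itga5, the fibronectin receptor chain that pairs with Itgb1, was at 280.5, 141 and 236 CPM in CONTROL replicates 1 to 3 and at 111, 161 and 143 CPM in HOXA13 replicates 1 to 3. The groups overlapped only through CONTROL replicate 2, which lay among the HOXA13 libraries. The log2 fold change of Itga5 was -0.66 ± 0.27 (SE), with an edgeR adjusted p of 0.318 and of 0.0133 without CONTROL replicate 2. With all 6 libraries voom called Itga5 lower (-0.72, adjusted p of 0.0197), and DESeq2 did not (adjusted p of 0.179).

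Itgav, the alpha chain of the vitronectin receptors, was at 474, 224 and 561 CPM in CONTROL replicates 1 to 3 and at 332, 441 and 422 CPM in HOXA13 replicates 1 to 3. All HOXA13 values lay inside the CONTROL range, with a log2 fold change of -0.074 ± 0.32 (SE) at an edgeR adjusted p of 0.949. Itgb5, a partner of Itgav, was at 58.0, 71.2 and 76.1 CPM in CONTROL replicates 1 to 3 and at 91.0, 98.9 and 87.9 CPM in HOXA13 replicates 1 to 3. The groups did not overlap, and the log2 fold change of 0.44 ± 0.17 (SE) had an edgeR adjusted p of 0.301, which passed in none of the alternatives.

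Itgb3, the other common partner of Itgav, was at 28.2, 4.48 and 8.02 CPM in CONTROL replicates 1 to 3 and at 5.92, 6.85 and 6.18 CPM in HOXA13 replicates 1 to 3. Its log2 fold change of -1.10 ± 0.64 (SE; edgeR adjusted p of 0.505) rested on CONTROL replicate 1, without which it was -0.0060. Itga2b, the platelet partner of Itgb3, was at 11.6, 3.04 and 5.85 CPM in CONTROL replicates 1 to 3 and at 3.46, 5.27 and 4.43 CPM in HOXA13 replicates 1 to 3. Here too the groups overlapped and CONTROL replicate 1 was highest. The log2 fold change of Itga2b went from -0.64 ± 0.57 (SE), with an edgeR adjusted p of 0.688, to -0.039 without that library. Without CONTROL replicate 2 the values were -1.53 for Itgb3 (edgeR adjusted p of 0.0689) and -1.01 for Itga2b (0.206). Both genes lie on chromosome 11, as Itgb4 does, and with the chromosome offset the log2 fold changes were -0.81 for Itgb3 and -0.41 for Itga2b. Itga8, a chain of kidney and smooth muscle, was at 1.80 to 9.27 CPM in CONTROL and 1.82 to 10.1 CPM in HOXA13 libraries, with a log2 fold change of 0.068 ± 0.79 (SE) at an edgeR adjusted p of 0.984. Itgb6 and Itgb8, the beta chains that activate latent TGF-beta, were at 0 to 1.99 CPM.

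The share of Itga6 in the integrin alpha level per kb of annotated exons was 16.6%, 29.1% and 23.2% in CONTROL replicates 1 to 3 and 42.5%, 34.9% and 38.8% in HOXA13 replicates 1 to 3. Itga5 was in the opposite order, with 25.3%, 14.2% and 17.1% in CONTROL and 9.95%, 12.3% and 10.8% in HOXA13 libraries. Neither share overlapped between the groups. The shares belong to the same sum, so a higher share of Itga6 lowers the others, and the Itga5 level itself overlapped between the groups. With the longest transcript in place of all exons Itga6 took 26.0%, 42.1% and 34.4% in CONTROL and 56.0%, 48.1% and 52.2% in HOXA13 libraries, and Itga5 took 9.81% to 18.9% and 6.26% to 8.11%, again without overlap. The ratio of Itga6 to Itga5 was 1.52 log2 units higher in HOXA13, with an exact two-sided permutation p of 0.1 and 0.16 after adjustment, and that of Itga3 to Itga5 was 0.58 higher with overlap, with an exact p of 0.2. Other ratios were those of Lama3 to Lama1 (2.45 higher, no overlap, exact p of 0.1), Lamb3 to Lamb1 (1.40 higher, exact p of 0.3) and Itgb6 to Itgb5 (a difference of -1.504, exact p of 0.4). Without CONTROL replicate 1 the difference was 0.26 for Itga3 to Itga5, 1.43 for Lama3 to Lama1 and 0.72 for Lamb3 to Lamb1, and without CONTROL replicate 2 it was 0.85, 3.30 and 2.30. That of Itgb6 to Itgb5 ranged from -2.52 without CONTROL replicate 3 to -0.37 without HOXA13 replicate 2.

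The other receptor classes were measured at low levels, with 11 members tested by edgeR at a mean under 5 CPM and 9 left out by its filter. The tested ones, Itga1 and Itga10 of the collagen receptors, Itga4 and Itga9, the leukocyte chains Itgam, Itgax and Itgb7, and Itgb6, Itgb8, Lama4 and Lamc3, had between 0 and 7.09 CPM, edgeR adjusted p-values from 0.684 to 0.992 and overlapping groups. Of the 50-base stretches of Itga10, 31.7% are not unique to it, so its level is uncertain. The members not tested were the collagen receptor chains Itga2 and Itga11, the leukocyte chains Itgad, Itgae, Itgal, Itgb2 and Itgb2l, Lama2, and Itgbl1, which matches the rule by its name but forms no receptor. Itgb2, the beta chain of leukocyte integrins, was the one among these 9 whose groups did not overlap, and was added after its values were seen. It was at 0.709, 3.20 and 2.92 CPM in CONTROL replicates 1 to 3 and 0, 0.234 and 0.424 CPM in the HOXA13 replicates. These were 10, 40 and 39 counts in CONTROL and 0, 4 and 7 counts in HOXA13 libraries. The HOXA13 values thus lie near the level of 3 counts. Of all genes tested, 8.52% were lower in HOXA13 without overlap. No such share is given here for genes left out by the filter. Itgb2l had no count in any library. The leukocyte markers summed to 11.7 to 67.5 CPM in CONTROL and 21.3 to 42.7 CPM in HOXA13 libraries, with Cd52 at 0, and the endothelial and megakaryocyte markers to 76.3 to 151 and 30.6 to 52.0 CPM, with Emcn and Gp9 at 0.

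**Figure D5:**
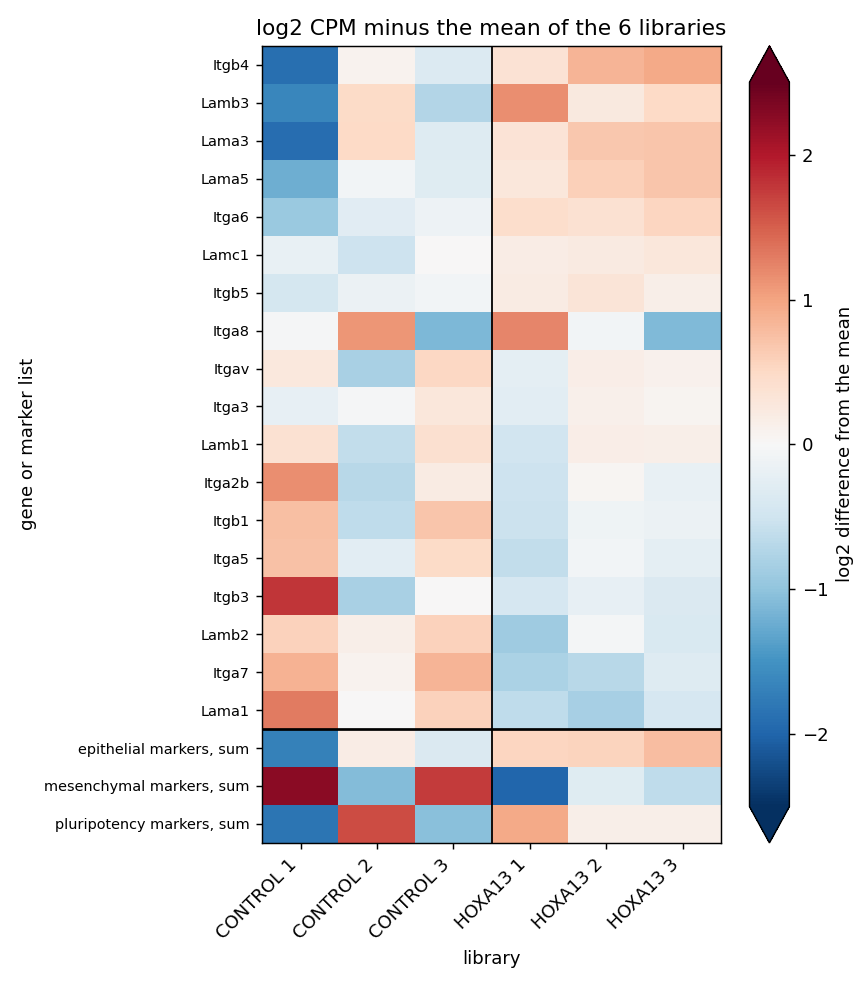
Deviation of each library (x axis) from the mean of the 6 libraries in log2 CPM, for 18 tested members at a mean of 5 CPM or more and, below the black line, for the summed levels of 3 marker lists (y axis). Red is above and blue below the mean. CONTROL replicate 2 differs from the other CONTROL libraries for many members, with Itgb1 at -0.64 against 0.75 and 0.70, and for the epithelial sum, at 0.19 against -1.69 and -0.36.

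The partners of these receptors inside and outside the cell were described by lists, and edgeR called 0 genes of the 4 lists with all 6 libraries. Without CONTROL replicate 2 it called 1 higher and 4 lower of the focal adhesion genes, 1 and 1 of the hemidesmosome and tetraspanin partners, 2 and 4 of the basement membrane partners and 1 and 4 of the other ligands, against 7.92% and 6.32% of all genes. Voom called 1 and 5, 1 and 1, 2 and 5, and 1 and 1 of the same lists, against 9.11% and 6.34%, and DESeq2 called 0 and 1, 1 and 0, 0 and 3, and 0 and 1, against 3.11% and 1.94%. Of 21 focal adhesion and integrin activation genes tested, 7 had positive log2 fold changes and the median was -0.15. In this list 2 genes higher and 1 lower in HOXA13 did not overlap between the groups, against 11.5% and 8.52% of all genes tested. Pxn (paxillin, an adaptor of focal adhesions) was higher in every HOXA13 library, at 213, 190.2 and 192 CPM in replicates 1 to 3 against 121, 161 and 147 CPM in CONTROL. Its log2 fold change was 0.47 ± 0.16 (SE), and with all 6 libraries neither edgeR nor DESeq2 called it higher. Tns3 (tensin 3, which ties integrin tails to actin) was lower in every HOXA13 library, at 177, 152 and 149 CPM in replicates 1 to 3 against 242, 224 and 232 CPM in CONTROL. Its log2 fold change was -0.55 ± 0.15 (SE), with adjusted p-values of 0.154 in edgeR and 0.0356 in DESeq2.

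Of the 6 hemidesmosome and tetraspanin partners 5 were tested. Cd9, a tetraspanin that associates with integrins in the membrane, was at 107, 370.3 and 199.8 CPM in CONTROL replicates 1 to 3 and at 650.3, 437 and 499.6 CPM in HOXA13 replicates 1 to 3. The groups did not overlap, and its log2 fold change of 1.23 ± 0.41 (SE) had adjusted p-values of 0.233 in edgeR and 0.0364 in DESeq2. Cd151, the tetraspanin bound most tightly to Itga3 and Itga6, was at 207 to 400.3 CPM in CONTROL and 177 to 213 CPM in HOXA13 libraries, with a log2 fold change of -0.69 ± 0.25 (SE) at an edgeR adjusted p of 0.263. Plec, the plectin that Itgb4 binds, had a log2 fold change of -0.18 ± 0.24 (SE), and Col17a1, the collagen that completes the type of hemidesmosome found in skin, was at 0 to 0.879 CPM and was not tested.

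Among 10 basement membrane partners and other laminin receptors, all tested, the median log2 fold change was -0.16 with 5 positive values. Sparc, a collagen-binding matrix protein abundant in embryonic basement membrane, was at 2797, 1138 and 2225 CPM in CONTROL replicates 1 to 3 and at 730.1, 805 and 755 CPM in HOXA13 replicates 1 to 3. Every HOXA13 library was below every CONTROL library, and the log2 fold change of -1.43 ± 0.30 (SE) had adjusted p-values of 0.102 in edgeR and 0.000187 in DESeq2. The summed visceral and parietal endoderm markers given beside Lama1 were also lower in every HOXA13 library. The mesenchymal sum was 9821, 977 and 6994 CPM in CONTROL replicates 1 to 3 and 521 to 1685 CPM in HOXA13 libraries. The part of either list in the Sparc value was not tested. Ntn4, a netrin that disrupts laminin networks, was at 10.50, 3.36 and 7.80 CPM in CONTROL and at 1.84, 0.879 and 1.58 CPM in HOXA13 libraries, without overlap. Its log2 fold change was -2.33 ± 0.63 (SE), with adjusted p-values of 0.160 in edgeR and 0.0132 in DESeq2. The nidogens, which link laminin to collagen IV, had log2 fold changes of -0.84 ± 0.39 for Nid1 and -1.30 ± 0.46 for Nid2 (SE), with overlapping groups. Dag1, the dystroglycan that binds laminin, and Sdc4, a heparan sulphate proteoglycan of the cell surface, were higher in every HOXA13 library, with log2 fold changes of 0.37 ± 0.16 and 1.15 ± 0.52 (SE) and edgeR adjusted p-values of 0.355 and 0.374.

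Of the 15 other integrin ligands 13 were tested, with 5 positive log2 fold changes and a median of -0.25. Fn1, the fibronectin bound by the Itga5-Itgb1 receptor, was at 3374, 2033 and 3728 CPM in CONTROL replicates 1 to 3 and at 1997, 4631 and 4976 CPM in HOXA13 replicates 1 to 3. The HOXA13 libraries lay on both sides of the CONTROL range, and the log2 fold change of 0.35 ± 0.37 (SE) had an edgeR adjusted p of 0.746. Cdh1, the E-cadherin used in the sort and a ligand of the Itgae integrin, was at 192, 1292 and 702 CPM in CONTROL replicates 1 to 3 and at 1732, 1690 and 1893 CPM in HOXA13 replicates 1 to 3, with a log2 fold change of 1.28 ± 0.55 (SE) at an edgeR adjusted p of 0.351. Edil3, an RGD ligand of Itgav receptors, had a log2 fold change of -2.67 ± 0.98 (SE), with overlapping groups and adjusted p-values of 0.276 in edgeR and 0.0466 in DESeq2.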

How the data were processed

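Each library came as a list of unnormalised counts by gene symbol, which the authors made from stranded poly-A reads aligned to mm9 with TopHat and counted with HTSeq 0.6.1p1. The gene annotation, the strand setting and the handling of multiply aligned reads are not given in the sources used here. Groups and replicate numbers come from the sample titles. Under R 4.3.3, edgeR 4.0.16 was run on the counts as deposited: filterByExpr by group (minimum count 10, minimum total 15) kept 13600 genes, TMM scaling was applied, and glmQLFit and glmQLFTest compared the groups with Benjamini-Hochberg adjustment over all genes tested and a threshold of 0.05. Standard errors come from the F statistic. Alternatives were DESeq2 1.42.0, limma 3.58.1 voom with sample quality weights, the newer edgeR 4 method, other scalings, no filter, a mean of at least 50 counts, a replicate block, a chromosome offset (median deviation of genes with at least 16 CPM) and leaving out each library. Levels per kb used the annotated exons of GENCODE on mm9. Ratios of 2 chains gave a gene at 0 a value of 0.5 counts. As a rule, values per library are given for tested members at a mean of 5 CPM or more; Itgb2, below it, was added after its values were seen. The values of 1 member are not reported here, although counts and medians include it. The code was tested on simulated data, in which 200 of 13600 genes were changed. There edgeR called 50.5% of the 4-fold and 12.6% of the 2-fold changes, so true changes of these sizes can fail to pass. The members and lists were chosen with earlier results of these data known. Total counts ranged from 12279884 to 17331638, and limits from 3 counts cover counting error only.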

Additional observations from a re-analysis of the deposited data

How the results depend on the processing

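In edgeR 0 integrins and 0 laminins passed, against 0.309% of all genes tested. DESeq2 called 2 and 4, against 5.05%, and voom with sample quality weights 5 and 6, against 15.4%. No filter gave 0 and 1, for which no share over all genes is given here. Leaving out 1 library gave 0 to 5 integrins and 0 to 5 laminins. Every call came without CONTROL replicate 2, where 14.2% of all genes tested were called. The laminin median log2 fold change of 0.20 was 0.057 with voom, 0.63 with a mean of at least 50 counts (8 laminins left), -0.097 with the chromosome offset and -0.066 to 0.43 when 1 library was left out, lowest without CONTROL replicate 2 and highest without CONTROL replicate 1; the cause was not tested. The integrin median of -0.20 was -0.51 with voom and -0.41 to -0.12 when 1 library was left out. Of 19 members with a mean of at least 5 CPM, 14 kept their sign in all 15 alternatives. With the chromosome offset Itga3 was at 0.060 and Lamc1 at -0.13. With 1 library left out, Itga3 ranged from -0.17 to 0.083, Itga8 from -0.81 to 0.82, Itgav from -0.39 to 0.17 and Lamb1 from -0.43 to 0.020. None of the 8 ratios changed sign. A replicate block called 0 integrins and 0 laminins, with medians of -0.34 and 0.17, and put Itgav at 0.0096; same-numbered libraries did not deviate together (mean correlation -0.133, against 0.0756 for different numbers), and 0 CONTROL libraries correlated best with their own number, so the numbers were not taken to pair the libraries. The 9 members left out by the filter on low counts were not tested in the main edgeR run. Without a filter 27 integrins and 11 laminins were tested, and DESeq2 tested 25 and 10.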

Other observations

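The 3 symbols left out by the rule belong to proteins that bind integrin tails or share their name. Itgb1bp1, which encodes a protein that binds the Itgb1 tail, was at 26.2, 27.5 and 37.8 CPM in CONTROL replicates 1 to 3 and at 19.8, 16.9 and 21.0 CPM in HOXA13 replicates 1 to 3. Its groups did not overlap, with a log2 fold change of -0.66 ± 0.24 (SE) at an edgeR adjusted p of 0.270. Itgb1bp2 and Itgb3bp were at 0.825 to 5.46 CPM with overlapping groups.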
